A study of Mus musculus with 6 samples.

Results

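The genes described here make sterols and fatty acids. They are 35 genes of the 31055 features in a single-cell RNA-seq count matrix of mouse lung tumor cells, taken by symbol and each found once. They were kept in 4 branches by the step they serve. The sterol branch held 17 genes, the regulators of both branches 4, the fatty acid branch 11 and a phospholipid branch 3. Cells make cholesterol from acetyl-CoA through mevalonate, squalene and lanosterol. They make fatty acids from the same acetyl-CoA, which ATP citrate lyase supplies, and both branches are driven by the SREBP transcription factors, which Scap escorts out of the endoplasmic reticulum and Insig1 holds there when sterols are abundant. In the lung, alveolar type II (ATII) cells turn saturated fatty acids into the phosphatidylcholine of surfactant, whereas the flat alveolar type I (ATI) cells secrete none.

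The cells came from 6 mice whose lung tumors had been started with intratracheal lentiviral Cre, 20 weeks before collection. All mice carried Lkb1XTR/XTR and Rosa26LSL-tdTomato, so that Cre switched on the red reporter and trapped Lkb1 in the same cells. The 3 Restored mice also carried FLPo-ERT2 and received tamoxifen in doses of 4 mg over 2 weeks, which lets FLPo remove the trap. The 3 NonRestored mice were 1 mouse without FLPo-ERT2 on tamoxifen, 1 without it on vehicle and 1 with it on vehicle, and 4 of the 6 mice were male. Virus reaches several lung cell types, so the cell of origin was not fixed. The sort took tdTomato-positive cells and left out those stained for CD45, CD31, F4/80 or Ter119. Restored against NonRestored was not analysed here, because the matrix pools the mice and no map from its cells to the mice was used. A test of 3 against 3 could not have gone below a two-sided exact permutation p of 0.1. The matrix was therefore treated as 1 sample. Levels are in CPM, the unique molecules (UMIs) counted for a gene in a pooled group of cells, scaled to 1000000 of the group's UMIs, and intervals are 95% intervals that cover counting error only and not the spread between mice.

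The matrix held 16017 cells and 266713311 UMIs. Of these, 12183 cells with at least 500 genes and at most 20% mitochondrial UMIs were kept. Groups of cells were set by 5 genes that are no members, in UMIs per 10000. ATII cells had Sftpc at 500 or more, Hopx under 2 and Krt8 plus Krt18 under 50 (6975 cells), and were split at 100 of Lyz2 into 3429 Lyz2-high and 3546 Lyz2-low cells. ATI cells had Hopx at 15 or more and the same keratin limit (956 cells). Keratin-high cells had Krt8 plus Krt18 at 50 or more (1183 cells). The remaining 3069 kept cells fell in no group. The median depth was 24514 UMIs in Lyz2-high, 18716 in Lyz2-low and 23490 in keratin-high cells, and 11796.5 in ATI cells. The names were checked on markers that did not set the groups. The 8 ATII markers other than Sftpc and Lyz2 summed to 51822 and 39223 CPM in Lyz2-high and Lyz2-low cells, and to 10218 CPM in ATI and 11445 CPM in keratin-high cells. The 7 ATI markers other than Hopx summed to 13058 CPM in ATI, 5666 CPM in keratin-high and 2156 and 3006 CPM in the ATII groups, and Krt19, Krt7, Cldn4 and Sfn to 5401 CPM in keratin-high, 1786 CPM in ATI and 339 and 579 CPM in the ATII groups. These groups are ranges of marker levels and not types, since 259 ATI cells and 165 keratin-high cells also had Sftpc at 500 or more, and 127 keratin-high cells had Hopx at 15 or more. Defining markers of lymphocytes and endothelium were near 0 in all 4 groups, with lymphoid lists summing to at most 0.410 CPM and endothelial lists to at most 4.56 CPM. The myeloid list summed to 106 CPM in Lyz2-high cells, of which Lyz1, a near copy of Lyz2, gave 97.3 CPM.

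The promoters of the members show what the branches share in sequence, which the choice of groups did not use. RefSeq promoters of 300 bases (GRCm38.p6, 250 before to 50 after the start) were found for 29 of the 35 members, and Fdps, Fdft1, Sqle, Scd1, Scd2 and Fads1 had none in the table. Both strands were searched for TCACNCCAC (a sterol element core), CCAAT (bound by NF-Y), CACGTG (an E-box) and TTGCNNAA (a C/EBP site core). CCAAT stood in 92.9% of the sterol genes with a promoter (13 of 14), in 3 of 4 regulators, in 4 of 8 fatty acid genes and in 1 of 3 phospholipid genes, against 37.4% of all 32851 promoters. TCACNCCAC stood in the promoters of Hmgcs1 and Pcyt1a and in 1.24% of all promoters, CACGTG in 6 of 29 members and 7.15% of all, and TTGCNNAA in 2 of 29 members and 10.8% of all. Genes can have several promoters in the table, which gives them more chances of a match. Below are 6 of them, chosen to set genes of unlike results side by side: Fasn, Elovl1 and Insig1 were lower in ATI and in keratin-high cells than in ATII cells, and Hmgcs1, Msmo1 and Hsd17b7 were not lower in keratin-high cells. They are written 5′ to 3′ along the gene's own strand, and capitals mark the motif matches.
Fasn: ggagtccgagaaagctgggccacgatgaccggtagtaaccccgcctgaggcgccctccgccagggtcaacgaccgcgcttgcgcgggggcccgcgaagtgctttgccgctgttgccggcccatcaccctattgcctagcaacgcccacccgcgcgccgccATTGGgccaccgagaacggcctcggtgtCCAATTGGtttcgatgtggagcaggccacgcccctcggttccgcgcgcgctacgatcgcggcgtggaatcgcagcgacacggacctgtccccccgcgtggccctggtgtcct
Elovl1: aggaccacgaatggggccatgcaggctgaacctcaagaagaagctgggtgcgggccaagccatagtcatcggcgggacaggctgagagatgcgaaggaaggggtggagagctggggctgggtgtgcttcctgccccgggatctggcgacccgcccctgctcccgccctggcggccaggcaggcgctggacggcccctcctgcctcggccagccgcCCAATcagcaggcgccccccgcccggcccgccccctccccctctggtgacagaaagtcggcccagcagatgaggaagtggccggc
Insig1: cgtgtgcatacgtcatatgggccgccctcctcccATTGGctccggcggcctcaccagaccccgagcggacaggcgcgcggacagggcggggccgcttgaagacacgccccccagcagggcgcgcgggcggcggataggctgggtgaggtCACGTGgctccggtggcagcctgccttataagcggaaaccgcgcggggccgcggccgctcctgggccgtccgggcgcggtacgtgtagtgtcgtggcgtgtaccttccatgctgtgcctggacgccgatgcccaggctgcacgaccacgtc
Hmgcs1: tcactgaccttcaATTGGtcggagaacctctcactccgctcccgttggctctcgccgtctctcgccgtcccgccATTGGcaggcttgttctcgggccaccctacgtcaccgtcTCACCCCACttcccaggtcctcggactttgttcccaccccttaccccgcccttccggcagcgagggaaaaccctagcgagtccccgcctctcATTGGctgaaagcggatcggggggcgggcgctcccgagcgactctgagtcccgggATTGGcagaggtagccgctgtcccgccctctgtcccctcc
Msmo1: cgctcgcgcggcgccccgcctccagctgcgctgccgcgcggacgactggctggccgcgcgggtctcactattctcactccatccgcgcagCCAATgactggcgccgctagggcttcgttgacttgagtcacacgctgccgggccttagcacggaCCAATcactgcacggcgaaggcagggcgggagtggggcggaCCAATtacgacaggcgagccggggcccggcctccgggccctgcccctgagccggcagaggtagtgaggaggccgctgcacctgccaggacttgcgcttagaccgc
Hsd17b7: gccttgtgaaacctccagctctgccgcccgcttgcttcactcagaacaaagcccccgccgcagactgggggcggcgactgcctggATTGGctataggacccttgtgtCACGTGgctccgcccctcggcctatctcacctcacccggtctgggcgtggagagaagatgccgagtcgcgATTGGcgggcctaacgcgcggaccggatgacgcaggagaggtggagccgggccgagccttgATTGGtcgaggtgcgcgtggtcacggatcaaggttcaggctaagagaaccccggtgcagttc
They lie at chr11:120824498-120824797 (minus strand, Fasn), chr4:118427843-118428142 (plus, Elovl1, the first of its 2 promoters), chr5:28071162-28071461 (plus, Insig1), chr13:119690101-119690400 (plus, Hmgcs1), chr8:64733529-64733828 (minus, Msmo1) and chr1:169969156-169969455 (minus, Hsd17b7). Hmgcs1 held TCACNCCAC as TCACCCCAC, 137 bases before the start, between its CCAAT matches. Msmo1 and Hsd17b7 each held 3 CCAAT matches, and Fasn held 3, of which 2 overlap. A match here is a run of letters and not a shown binding site.

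In ATII cells the fatty acid genes gave far more UMIs than the sterol genes, apart from Pmvk. The 11 fatty acid genes summed to 6191 CPM (6178 to 6203), of which Scd1, the stearoyl-CoA desaturase that makes monounsaturated fatty acids, gave 54.3% and the very long chain elongase Elovl1 18.6%. The 17 sterol genes summed to 1298 CPM, of which Pmvk, phosphomevalonate kinase, gave 62.6%. Since 1 gene decides that sum, the sterol sum is given below without Pmvk, a choice made after the values were seen. It was 486 CPM in ATII cells, and the regulators summed to 278 CPM and the phospholipid genes to 1201 CPM.

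**Figure D1:**
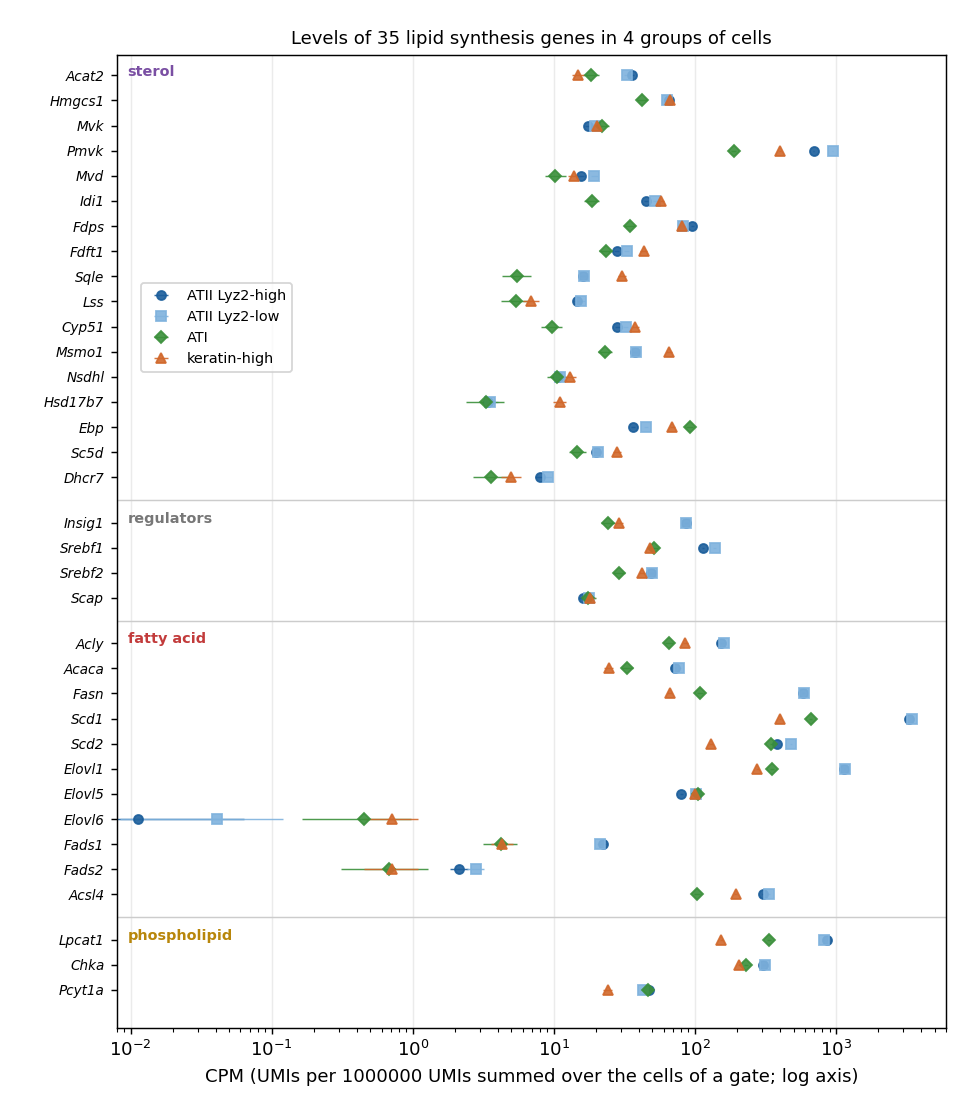
Level of each of the 35 genes in 4 groups of cells, in CPM on a log axis, with 95% counting intervals as bars (hidden by the symbol where narrow). Circles and squares are the 2 ATII groups, diamonds ATI cells and triangles keratin-high cells. In the fatty acid branch the ATII groups lie to the right of the others for most genes, and in the sterol branch keratin-high cells lie furthest right for 9 of 17.

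Along Lyz2, the lysozyme gene that marks mature ATII cells, few features passed 1.5-fold, and no tested member did. In Lyz2-high against Lyz2-low ATII cells, none of the 32 members with a mean level of at least 5 CPM passed 1.5-fold with an interval that excludes 1, in either direction. Of all 9152 features tested, 0.972% passed it upward and 4.44% downward, so the lack of members past it does not set them apart. The fatty acid sum was 6048 CPM in Lyz2-high and 6362 CPM in Lyz2-low cells, and the sterol sum without Pmvk 478 and 495 CPM. Fasn, the fatty acid synthase, was at 583 and 593 CPM, Elovl1 at 1149 and 1157 CPM and Sqle, squalene epoxidase, at 16.0 and 16.4 CPM. Closest to no difference were Sqle and Msmo1 among the sterol genes (log2 ratios of -0.04 and -0.03), Fasn and Elovl1 among the fatty acid genes (-0.02 and -0.01) and Chka and Lpcat1 among the phospholipid genes (-0.05 and 0.07). The regulators Insig1 and Srebf2 were as close (0.01 and -0.02), and Scap was at -0.14. The largest gap was in Pmvk, at 697 CPM in Lyz2-high and 950 CPM in Lyz2-low cells (1.36-fold, 1.35 to 1.38). Elovl5 (1.26-fold, 1.22 to 1.31), Scd2 (1.26-fold, 1.24 to 1.28), Mvd (log2 ratio -0.33), Ebp (1.23-fold, 1.17 to 1.29) and the regulator Srebf1 (1.21-fold, 1.18 to 1.24) were also lower in Lyz2-high cells, inside the limit. Over 6 Lyz2 ranges, from under 25 to 400 or more per 10000, Pmvk went from 1010 to 529 CPM, Scd2 from 461 to 295 CPM, Elovl5 from 101 to 66.0 CPM and Srebf1, which encodes the SREBP of the fatty acid branch, from 137 to 96.1 CPM. Fdps (1.16-fold), Pcyt1a (1.10-fold) and Acat2 (1.08-fold) were higher in Lyz2-high cells, and over these ranges Fdps went from 77.5 to 111 CPM. Over the same ranges the sterol sum without Pmvk stayed between 466 and 505 CPM. The median feature itself lay at a log2 ratio of -0.20 here, and Sftpc alone was at 170621 CPM in Lyz2-high and 136896 CPM in Lyz2-low cells. Relative to it the medians of both branches change sign, from -0.12 to 0.08 for sterol genes and from -0.06 to 0.14 for fatty acid genes, so no direction is given for either. Lyz2-low cells also held more of the cycling list (88.7 against 21.1 CPM over 5 genes) and of the fibroblast list (53.8 against 11.9 CPM over 5 genes). With every cell left out that had at least 3 UMIs of a list of other cells or of the cycling list, again no sterol or fatty acid gene passed the limit, with medians of -0.17 and -0.14.

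The fatty acid genes were much lower in ATI cells than in ATII cells. Of the 9 tested, 7 were past 1.5-fold lower and none higher, beside 8.75% of all 9404 features lower and 30.3% higher, and their median log2 ratio was -1.62 against 0.36 over all features. Fasn stood at 583 CPM in Lyz2-high, 593 CPM in Lyz2-low and 109 CPM in ATI cells. That is 5.38-fold lower (5.11 to 5.67) than in all ATII cells. Scd1 stood at 3302, 3434 and 661 CPM, which is 5.09-fold lower (4.98 to 5.20). Fads1, a desaturase of polyunsaturated fatty acids, stood at 22.3, 21.2 and 4.20 CPM, 5.19-fold lower (3.99 to 6.89). It passed the filter of 5 CPM only through the ATII cells, and without it 6 of 8 genes were lower. The same held for genes at the head of the path and at its end. Acly, ATP citrate lyase, was 2.39-fold lower (2.23 to 2.56), Acaca, the acetyl-CoA carboxylase, 2.26-fold (2.06 to 2.50), Elovl1 3.27-fold (3.18 to 3.37) and Acsl4, which activates polyunsaturated fatty acids, 3.07-fold (2.91 to 3.24). The exceptions were Scd2 and Elovl5, an elongase of polyunsaturated fatty acids. Scd2 was at 425 CPM in ATII and 348 CPM in ATI cells (log2 ratio -0.29), and Elovl5 at 89.7 and 105 CPM (0.22). So the paralogs Scd1 and Scd2 parted between these groups, and the counts of these near copies are less certain where reads fit both. Relative to the median feature, Elovl5 lay below 0 as well (-0.14).

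The sterol genes were also lower in ATI cells, by less and not all of them. Of 16 tested, 11 passed lower and 1 higher, beside 8.75% of all features lower and 30.3% higher, and their median log2 ratio was -0.83 against 0.36 over all features. Cyp51, the lanosterol demethylase, was at 30.1 CPM in ATII and 9.67 CPM in ATI cells (3.11-fold lower, 2.61 to 3.74). Sqle was at 16.2 and 5.47 CPM (2.95-fold, 2.34 to 3.78) and Lss, lanosterol synthase, at 15.1 and 5.40 CPM (2.81-fold, 2.22 to 3.60). The prenyl diphosphate genes Fdps and Idi1 were 2.62-fold (2.38 to 2.88) and 2.61-fold (2.30 to 2.98) lower. Fdps shares part of its locus on the same strand with the counted gene Gm43738, so its count is less certain. Dhcr7, the last reductase of the path, was at 8.44 and 3.60 CPM (2.35-fold, 1.76 to 3.20), and it passed the filter only through the ATII cells. Without it 10 of 15 sterol genes were lower. Acat2, the cytosolic thiolase, was 1.88-fold lower (1.66 to 2.15), Mvd 1.68-fold (1.42 to 2.01), Msmo1 1.64-fold (1.46 to 1.84) and Hmgcs1, the HMG-CoA synthase, 1.52-fold (1.40 to 1.66). Pmvk showed the largest gap, at 812 and 188 CPM (4.32-fold, 4.16 to 4.50). Ebp, a sterol isomerase, went the other way, at 40.5 CPM in ATII and 91.6 CPM in ATI cells (2.26-fold higher, 2.13 to 2.40). Mvk (log2 ratio 0.25, and -0.11 relative to the median feature) and Nsdhl (-0.04) were closest to no difference, and Fdft1 and Sc5d were 1.29-fold and 1.37-fold lower, inside the 1.5-fold limit. Hsd17b7 was at 3.46 and 3.30 CPM and was not tested. How far the 2 branch sums differ depends on the genes that lead them. The whole sterol sum was 2.48-fold lower in ATI cells (2.42 to 2.54) and the whole fatty acid sum 3.47-fold (3.43 to 3.52). Without Pmvk the sterol sum was 1.44-fold lower (1.40 to 1.49), at 486 CPM in ATII and 336 CPM in ATI cells, and without Scd1 and Elovl1 the fatty acid sum was 2.18-fold lower (2.13 to 2.22).

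Of the 4 regulators, 3 were past the limit lower in ATI cells, beside the 8.75% of all features, and 1 was not. Insig1, itself a target of SREBPs, was at 86.7 CPM in ATII and 24.1 CPM in ATI cells (3.59-fold lower, 3.22 to 4.02). Srebf1 was at 125 and 51.2 CPM (2.44-fold, 2.26 to 2.64) and Srebf2, which encodes the SREBP of the sterol branch, at 49.5 and 28.9 CPM (1.71-fold, 1.54 to 1.90). Scap was at 16.7 and 17.5 CPM (log2 ratio 0.06, and -0.30 relative to the median feature). Among the phospholipid genes Lpcat1, which remodels phosphatidylcholine into the surfactant form, was at 848 and 336 CPM (2.52-fold lower, 2.45 to 2.60). Chka, choline kinase, was 1.33-fold lower, inside the limit, and Pcyt1a, the rate-limiting step of phosphatidylcholine synthesis, was at 45.3 and 46.4 CPM (0.03).

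**Figure D2:**
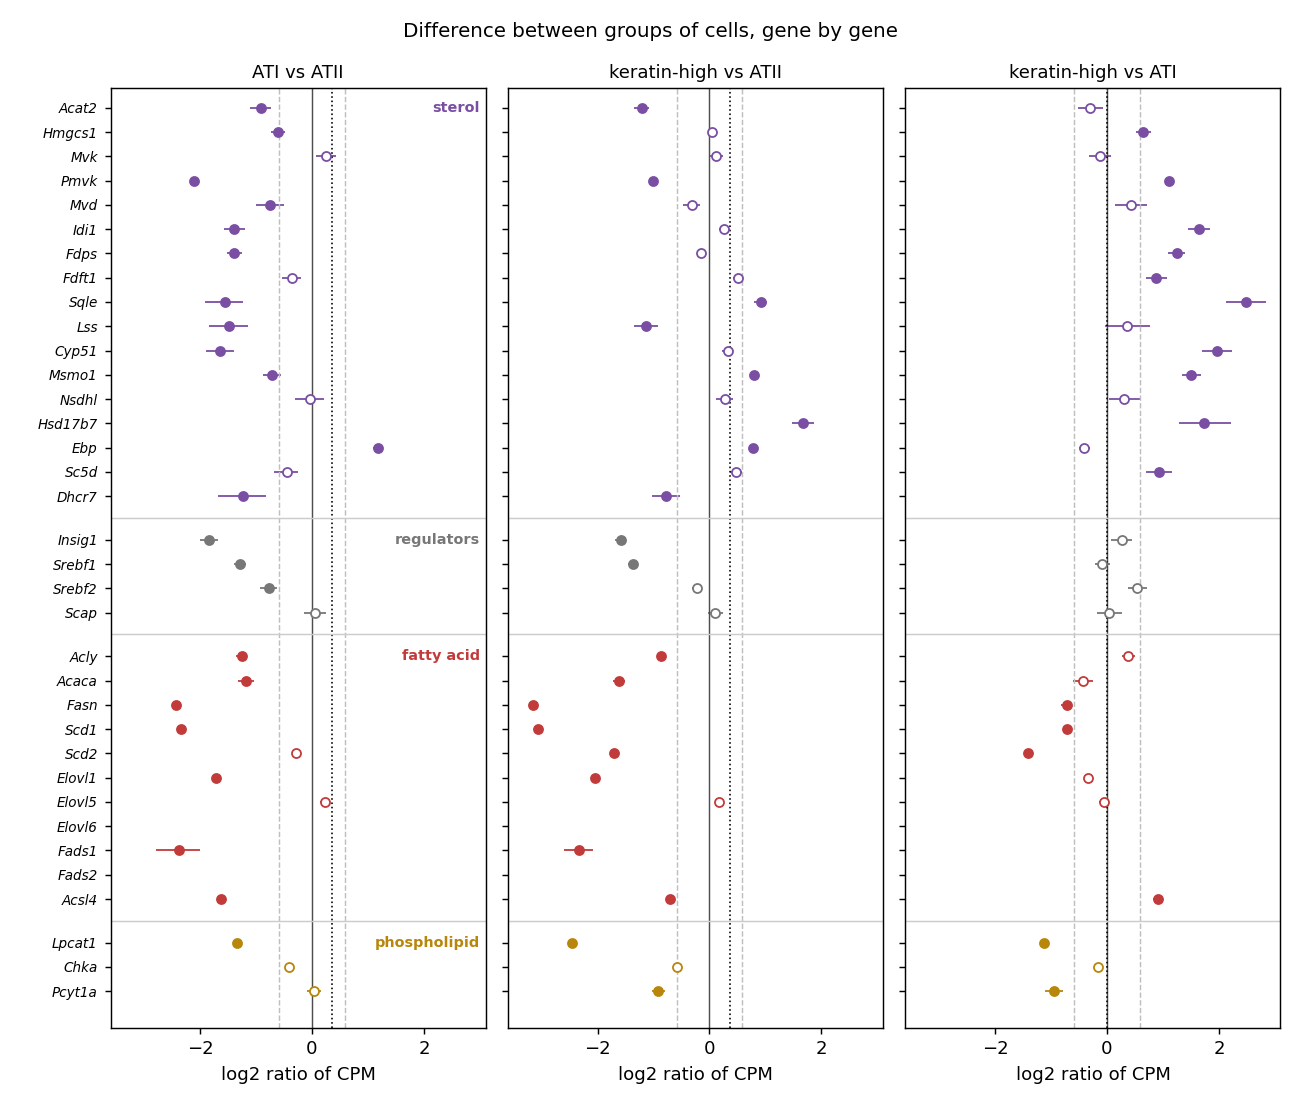
Log2 ratio of CPM for each tested gene in 3 comparisons of groups, with 95% counting intervals as bars. Filled points are past 1.5-fold (dashed lines) with an interval that excludes 0 and open points are not, and the dotted line is the median of all features tested. The left and middle panels share the ATII cells. Fatty acid genes (red) other than Elovl5 lie left of 0 in both, and sterol genes (purple) lie mostly left in the first panel, on both sides in the second and mostly right in the third.

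In keratin-high cells the fatty acid genes were lower than in ATII cells, and the sterol genes lay on both sides of the ATII level. Keratin-high cells had Krt8 at 4571 CPM and Krt18 at 4658 CPM, the keratins that mark transitional alveolar cells. Of 9 fatty acid genes tested, 8 were past the limit lower and none higher than in ATII cells, with a median log2 ratio of -1.71. Over all 9489 features, 8.53% were lower and 33.3% higher, with a median of 0.37. This comparison uses the same ATII cells as the last, so the values are set side by side and not counted as agreement. Fasn was at 588 CPM in ATII and 66.4 CPM in keratin-high cells (8.85-fold lower, 8.47 to 9.25). Scd1 was at 3362 and 402 CPM (8.36-fold, 8.21 to 8.51). Fads1 was 5.06-fold lower (4.25 to 6.07) and again passed the filter only through the ATII cells, and without it 7 of 8 genes were lower. Elovl1 was 4.15-fold lower (4.06 to 4.24), Scd2 3.26-fold (3.16 to 3.37), Acaca 3.05-fold (2.83 to 3.29), Acly 1.83-fold (1.76 to 1.91) and Acsl4 1.63-fold (1.59 to 1.68). Elovl5 was at 89.7 and 101 CPM (log2 ratio 0.17, and -0.20 relative to the median feature), and was thus 1 of the 2 fatty acid genes closest to no difference, with Acsl4.

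Of the 17 sterol genes, 4 were past the limit higher in keratin-high cells, 4 lower and 9 neither, beside the 33.3% of all features higher and 8.53% lower, and their median log2 ratio was 0.25. Hsd17b7, among the higher genes, and Dhcr7, among the lower, passed the filter only through the group where they are high, and without them 3 of 15 were higher and 3 lower. Sqle was at 16.2 CPM in ATII and 30.4 CPM in keratin-high cells (1.88-fold, 1.74 to 2.03), Msmo1, a methylsterol oxidase, at 37.7 and 65.3 CPM (1.73-fold, 1.65 to 1.82) and Ebp at 40.5 and 69.2 CPM (1.71-fold, 1.63 to 1.79). Hsd17b7, which reduces the sterol ketone, was at 3.46 and 10.99 CPM (3.18-fold, 2.77 to 3.64). Those lower were Acat2 (2.32-fold, 2.11 to 2.56), Lss (2.19-fold, 1.90 to 2.53), Pmvk (2.01-fold, 1.98 to 2.05) and Dhcr7 (1.70-fold, 1.44 to 2.03). Hmgcs1 was at 64.4 and 66.1 CPM and Mvk at 18.5 and 20.1 CPM, the 2 closest to no difference. The log2 ratios of the others lay between -0.32 (Mvd) and 0.52 (Fdft1). The direction of the sterol branch as a whole depends on how it is summed and scaled and on the depth of the cells used. Without Pmvk the sum was 1.16-fold higher (1.14 to 1.18) in keratin-high cells, at 564 against 486 CPM, and with Pmvk it was 1.34-fold lower. Relative to the median feature, 1 sterol gene was past the limit higher (Hsd17b7, with the filter as above) and 5 lower, and the median was -0.12. The unscaled median was -0.03 in cells of 10000 to 30000 UMIs and 0.03 with each cell thinned to 5000 UMIs.

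Among the regulators Insig1 was at 86.7 CPM in ATII and 28.9 CPM in keratin-high cells (a log2 ratio of -1.58, past the limit) and Srebf1 at 125 and 48.2 CPM (2.59-fold, 2.46 to 2.73). Srebf2 was at 49.5 and 42.2 CPM (log2 ratio -0.23) and Scap at 16.7 and 17.9 CPM (0.10, and -0.27 relative to the median feature), neither past the limit. Lpcat1 was at 848 and 154 CPM (5.51-fold lower, 5.35 to 5.67) and Pcyt1a at 45.3 and 24.1 CPM (1.88-fold, 1.75 to 2.03). Chka was at 308 and 206 CPM, a log2 ratio of -0.58 that stops just short of the limit.

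Set directly against ATI cells, keratin-high cells had higher levels of most sterol genes. This comparison was added after the others had been seen. Of 16 sterol genes tested, 10 passed higher and none lower, with a median log2 ratio of 0.90, beside 11.8% of 9562 features higher and 10.1% lower and a median of 0.01. Sqle was 5.56-fold higher (4.38 to 7.16), Cyp51 3.90-fold (3.25 to 4.71), Hsd17b7 3.33-fold (2.43 to 4.67), Idi1 3.11-fold (2.72 to 3.57) and Msmo1 2.84-fold (2.52 to 3.21). Fdps followed at 2.37-fold, Pmvk at 2.15-fold, Sc5d, a sterol desaturase, at 1.90-fold, Fdft1, squalene synthase, at 1.84-fold and Hmgcs1 at 1.56-fold. Hsd17b7 again passed the filter only through the keratin-high cells, and without it 9 of 15 were higher. The cycling list was higher in keratin-high cells as well, at 46.8 against 2.92 CPM over 5 genes. Without cells that had at least 3 UMIs of that list or of a list of other cells, 10 sterol genes were higher and 1 lower. That filter left out 725 of 1183 keratin-high and 242 of 956 ATI cells over all lists together. The part of cycling alone was not tested. Ebp was 1.32-fold lower, and Mvk (log2 ratio -0.13), Acat2 (-0.30) and Nsdhl (0.31) differed least. None of the regulators passed, with Srebf2 at 1.46-fold, Insig1 at 1.20-fold, Scap at 1.03-fold and Srebf1 at 0.942-fold. In the fatty acid branch Scd2 (2.67-fold, 2.56 to 2.79), Fasn (1.64-fold, 1.54 to 1.76) and Scd1 (1.64-fold, 1.60 to 1.69) were lower and Acsl4 higher (1.89-fold, 1.78 to 2.00), and Elovl5 (-0.06) and Elovl1 (-0.34) differed least. The count of 3 lower genes became 1 among cells with Sftpc under 100, 1 with Hopx at 30 or more and 1 with a mean over cells. Among cells with Sftpc under 100, Fasn was at 51.6 CPM in ATI and 42.5 CPM in keratin-high cells, Scd1 at 314 and 241 CPM and Scd2 at 359 and 111 CPM. Lpcat1 (2.18-fold) and Pcyt1a (1.93-fold) were lower, and Chka was at a log2 ratio of -0.17.

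Elovl6 and Fads2 passed the filter in no comparison. Elovl6, which elongates palmitate, gave 4 UMIs over all ATII cells, 6 in ATI cells and 22 in keratin-high cells. It was at 9.85 CPM in 241 cells outside the groups that were marked by fibroblast genes. Fads2 was at 2.44 CPM in ATII cells, 0.674 CPM in ATI cells and 0.717 CPM in keratin-high cells.

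The branch sums also changed along the marker levels themselves. In cells with low keratins ordered by Hopx, the fatty acid sum fell over 6 ranges from 5778 CPM under 2 per 10000 to 1016 CPM at 60 or more. The sterol sum without Pmvk went from 484 to 345 CPM over the same ranges, with 330 CPM between 30 and 60. With Pmvk the sterol sum went from 1253 to 428 CPM, and without Scd1 and Elovl1 the fatty acid sum went from 1588 to 587 CPM. Both branches were thus lower along Hopx on every sum. With all genes kept in both, or the leading genes left out of both, the fatty acid sum fell by the larger fold. In all kept cells ordered by Krt8 plus Krt18, the fatty acid sum went from 6132 CPM under 10 per 10000 to 890 CPM at 200 or more, and the phospholipid sum from 1185 to 250 CPM. The sterol sum without Pmvk was 487 CPM in the lowest range, 453 CPM in the next and 662 CPM in the highest, which held 40 cells. With Pmvk it was 1038, 1345 and 994 CPM in these ranges. Hmgcs1 followed that course, at 66.9, 56.3 and 99.5 CPM, and so did Msmo1, at 37.8, 34.6 and 90.04 CPM. Fasn went from 572 to 30.3 CPM and Scd1 from 3429 to 136 CPM. Scd2 behaved unlike Scd1 along Hopx, where it stayed between 326 and 403 CPM while Scd1 went from 3115 to 197 CPM.

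**Figure D3:**
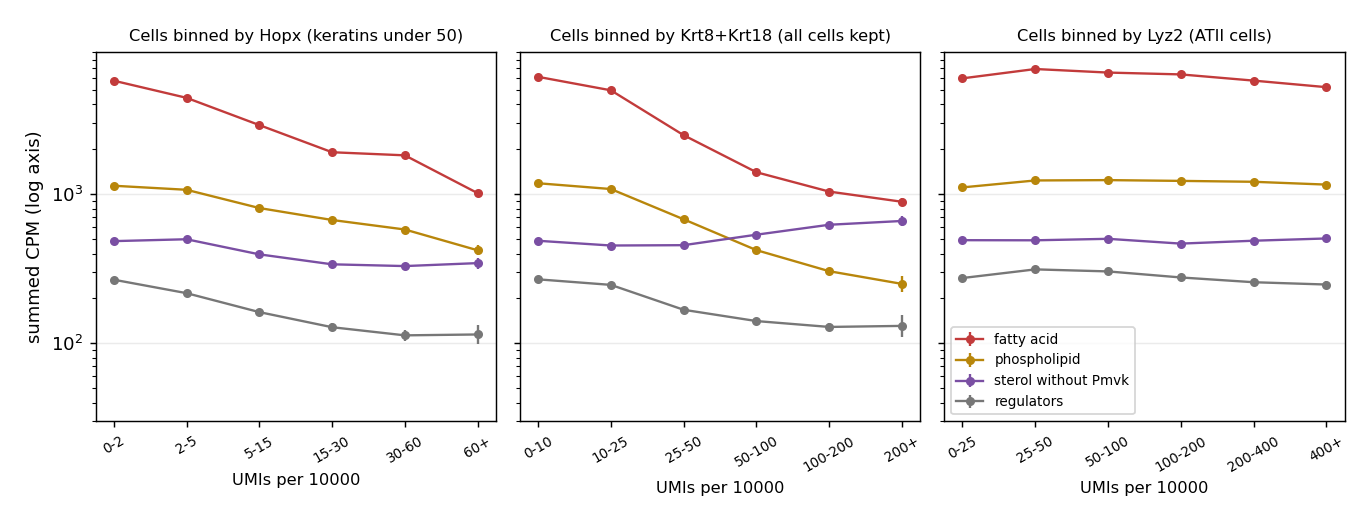
Summed CPM of each branch on a log axis in cells binned by Hopx (cells with keratins under 50), by Krt8 plus Krt18 (all kept cells) and by Lyz2 (ATII cells), in UMIs per 10000; bars are 95% counting intervals. The fatty acid line drops from 5778 to 1016 CPM along Hopx and from 6132 to 890 CPM along the keratins, the sterol line (drawn without Pmvk) goes from 487 to 453 CPM and then up to 662 CPM along the keratins, and along Lyz2 the fatty acid line stays between 5228 and 6921 CPM.

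Within the ATI and keratin-high groups, the fatty acid sum was higher in cells with more Sftpc. The 259 ATI cells with Sftpc at 500 or more had a fatty acid sum of 2484 CPM, and the 490 ATI cells with Sftpc under 100 had 1215 CPM, 5.09-fold lower (4.97 to 5.22) than ATII cells. In keratin-high cells the fatty acid sum was 2297 CPM in 165 cells with Sftpc at 500 or more and 999 CPM in 749 cells under 100, 6.20-fold lower (6.11 to 6.29) than ATII cells. The whole sterol sum was also higher with more Sftpc, at 564 and 467 CPM in those ATI cells and 1264 and 903 CPM in those keratin-high cells, where Pmvk was at 752 and 300 CPM. Without Pmvk the sterol sum was 339 and 333 CPM in the ATI cells, and in the keratin-high cells the order turned around, at 512 and 604 CPM. The part of doublets with ATII cells and of free ATII message in these values was not tested. Sftpc, a surfactant gene of ATII cells, was at 1507 CPM in the 241 fibroblast-marked cells.

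Several sterol genes differed between keratin-high cells with little and with more Hopx. Idi1 was at 70.2 CPM in 620 keratin-high cells with Hopx under 2 and 15.9 CPM in 127 with Hopx at 15 or more (4.41-fold, 3.14 to 6.40). Sqle was at 35.2 and 6.55 CPM (5.37-fold, 3.18 to 9.89), and Msmo1 and Cyp51 were 2.46-fold (1.92 to 3.20) and 2.63-fold (1.86 to 3.85) higher in the cells with little Hopx. Their sterol sum without Pmvk was 599 CPM against 374 CPM, near the 336 CPM of ATI cells. The fatty acid sum was 1314 and 1094 CPM. Ebp went the other way among the sterol genes, at 59.0 and 87.6 CPM (1.48-fold, 1.26 to 1.73), while for Mvk, at 18.7 and 21.5 CPM, and Nsdhl, at 13.4 and 13.1 CPM, the interval of the ratio held 1. In the fatty acid branch Acsl4 was higher in the cells with little Hopx, at 242 and 85.7 CPM (2.82-fold, 2.43 to 3.29), and Scd2 was lower, at 97.5 and 221 CPM, as was the phospholipid gene Pcyt1a, at 18.4 and 39.3 CPM. The cells with little Hopx had a median of 27049 UMIs and the others 15598 UMIs, and the part of this depth gap was not tested.

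The spread from cell to cell was set out on thinned cells. With every cell thinned to 5000 UMIs, which left out 37 Lyz2-high, 166 Lyz2-low, 115 ATI and 93 keratin-high cells, the median fatty acid sum was 26 UMIs in Lyz2-high and 28 in Lyz2-low cells, with a 10th to 90th percentile of 12 to 54 and 12 to 63. It was 6 (3 to 13) in ATI cells and 5 (2 to 12) in keratin-high cells, so the upper tail of both just reached the lower tail of the ATII groups. The sterol sum without Pmvk had a median of 2, 2, 1 and 2 UMIs. Each sterol gene was then correlated over cells with the sum of the other sterol genes without Pmvk. These are descriptions, since the cells of all mice are pooled and share 1 depth, and only genes with a mean of at least 0.05 UMIs were used. In 1090 keratin-high cells r reached 0.55 for Fdps, 0.53 for Sqle, 0.52 for Msmo1, 0.49 for Cyp51 and 0.48 for both Hmgcs1 and Idi1. The highest r was 0.42 (Fdps) in 3392 Lyz2-high cells and 0.29 in 3380 Lyz2-low cells, and in 841 ATI cells none of the 10 sterol genes used passed 0.093. ATI cells had a mean of 1.60 UMIs of the sterol sum without Pmvk, with 21.2% of the cells at 0. The part of such low counts in r was not tested. The median r of the sterol genes was 0.20, 0.16, 0.044 and 0.30 in Lyz2-high, Lyz2-low, ATI and keratin-high cells, and that of the fatty acid genes 0.17, 0.18, 0.22 and 0.16. Pmvk (0.044) and Ebp (0.076) stood apart from the other sterol genes in keratin-high cells. In the fatty acid branch Scd2 had the highest r in the ATII groups (0.50 and 0.57), and Scd1 (0.46 and 0.35) in ATI and keratin-high cells. The fatty acid sum and the sterol sum without Pmvk rose together in ATII cells (r = 0.27 in Lyz2-high and 0.31 in Lyz2-low). They had r of 0.055 in ATI and -0.032 in keratin-high cells. Between the fatty acid sum and Sftpc, r was 0.35 in ATI and 0.37 in keratin-high cells. It was -0.14 in Lyz2-high and -0.051 in Lyz2-low cells. These r cannot be compared between groups, because a minimum of Sftpc set the ATII groups and cut its range there. Sftpc also took more of the fixed total of UMIs in the ATII groups (170621 and 136896 CPM) than in ATI (47497 CPM) or keratin-high cells (19250 CPM). The part of the minimum and of this share in r was not tested.

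**Figure D4:**
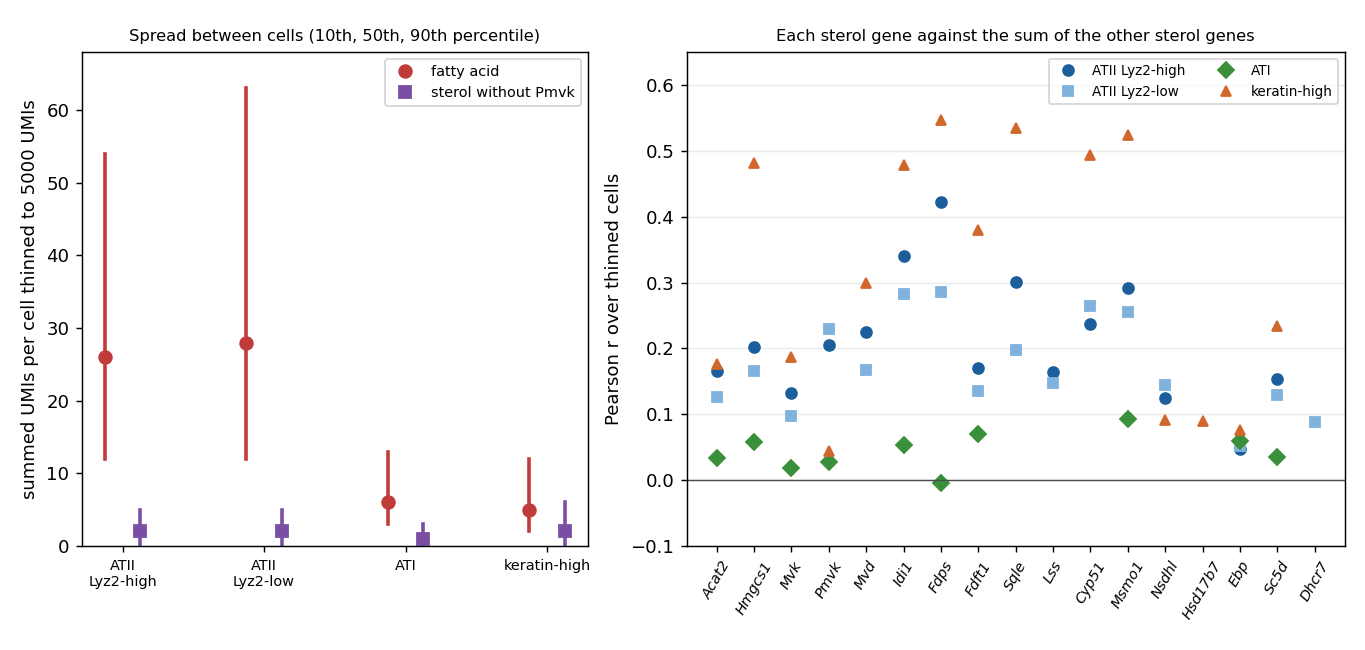
Left, UMIs of the fatty acid genes (circles) and of the sterol genes without Pmvk (squares) per cell thinned to 5000 UMIs, with the median as a symbol and the 10th to 90th percentile as a line, in 4 groups of cells. Right, Pearson r over thinned cells between each sterol gene and the sum of the other sterol genes without Pmvk; keratin-high cells (triangles) reach 0.55 for Fdps and ATI cells (diamonds) stay at or under 0.093.

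Other genes of the same pathways, which are no members, are given by count, except for the list of sterol synthesis and its control, of which 6 genes are given by value. In ATI against ATII cells Stard4, a sterol carrier, was 2.07-fold lower (1.74 to 2.48). The other 5 were inside the limit, with Lbr 1.24-fold lower and Ggps1 (1.42-fold), Mbtps1 (1.37-fold), Mbtps2 (1.34-fold) and Insig2, the paralog of Insig1 (1.24-fold), higher. In keratin-high against ATII cells Insig2 was 1.57-fold higher (1.49 to 1.64), and the other 5 were inside the limit, from Ggps1 (1.47-fold higher) to Lbr (1.13-fold lower). The counts stand beside 8.75% of all features lower and 30.3% higher in ATI than in ATII cells, and 8.53% lower and 33.3% higher in keratin-high than in ATII cells. Of 13 further fatty acid genes tested, 4 were lower and 1 higher in ATI cells, with Fads3 3.51-fold higher and Acss2, which makes acetyl-CoA from acetate, 2.82-fold lower, and 3 were lower and 4 higher in keratin-high cells, with Acss2 4.45-fold lower and Elovl7 2.33-fold higher. Genes of phospholipid handling and storage had 4 of 11 lower in ATI cells, led by the fatty acid binding protein Fabp5 (23.9-fold) and the lamellar body transporter Abca3 (3.36-fold). In keratin-high cells 5 of 12 were lower and 2 higher, with Abca3 5.46-fold lower and Lpcat4 11.5-fold higher. Of sterol efflux and uptake genes, 4 of 8 were lower and 1 higher in ATI cells, with Abca1 6.01-fold higher, and 5 of 9 lower and 1 higher in keratin-high cells, with Apoe 22.0-fold lower and Soat1, which esterifies cholesterol, 6.89-fold lower. In Lyz2-high against Lyz2-low cells 1 of these genes passed, Fabp5, 1.76-fold higher.

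Markers of other cells differed between the groups and are given here as values. Of the 4 mesothelial markers 1 was at 1 CPM or more, Msln at 125 CPM in keratin-high and 39.0 CPM in ATI cells, with Wt1 and Upk3b at 0 in both. Of the 4 ciliated markers 1 was at 1 CPM or more in keratin-high cells, Tppp3 at 286 CPM, with Foxj1 at 0.359 CPM, and 3 were in ATI cells, Tppp3 at 137 CPM, Ccdc153 at 1.80 CPM and Foxj1 at 1.20 CPM. The 3 club markers summed to 104 and 141 CPM in Lyz2-high and Lyz2-low cells, 43.6 CPM in ATI and 16.0 CPM in keratin-high cells. The 5 cycling markers summed to 2.92 CPM in ATI and 46.8 CPM in keratin-high cells. Fibroblast markers summed to 10.6 CPM in keratin-high, 9.82 CPM in ATI, 11.9 CPM in Lyz2-high and 53.8 CPM in Lyz2-low cells, where all 5 were at 1 CPM or more. Leaving out every cell with at least 3 UMIs of a list of other cells or of the cycling list removed 725 of the 1183 keratin-high cells and gave 5 sterol genes higher and 4 lower than in ATII cells, and 8 fatty acid genes lower. Stk11, the Lkb1 gene, was at 28.6, 19.1, 31.8 and 10.8 CPM in Lyz2-high, Lyz2-low, ATI and keratin-high cells. GFP, which the Lkb1 trap carries, was at 13.4, 30.1, 34.9 and 51.7 CPM. The part of Lkb1 status in the differences between groups was not tested.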

How the data were processed

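Tumor cells were profiled with 10x Genomics 3′ chemistry. The authors aligned reads to mm10 and counted UMIs per gene with Cell Ranger 3.0.2 (submitters' processing notes), and deposited the counts as 1 pooled matrix of 31055 features by 16017 cells. These raw UMI counts were used as deposited. No doublet caller was run.

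Cells were filtered and grouped as the report states. UMIs were summed over the cells of a group, so deep cells weigh more. Levels carry exact Poisson intervals and ratios exact conditional binomial (Clopper-Pearson) intervals, both at 95%. A gene was tested where the mean CPM of both groups was at least 5, and called past 1.5-fold where the interval excluded 1. No p-value was computed, since the pooled cells are 1 sample. For cell spread, each cell was thinned to 5000 UMIs, leaving out shallower cells. Ratios and intervals were tested on simulated data.

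The members, the gene lists and the groups were chosen with earlier results of these data known. The text names each member past the limit, the 2 of each branch closest to no difference and all 4 regulators, and of other lists at most 3 genes with the largest ratio. Some genes of the list of sterol synthesis and its control, and 1 allele that all mice carried, are not reported here, so that list is not counted.

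Gene positions came from GENCODE M21 (GRCm38). Fdps overlaps 1 counted gene on its own strand, and 13 members overlap a gene on the other strand, whose reads cannot be told apart unless the counting used strand, which the sources used here do not give. Promoters came from RefSeq (GRCm38.p6). Values were computed with scipy 1.17.1, numpy 2.4.6 and pandas 2.3.3 under Python 3.11.15, and drawn with matplotlib 3.10.9. The alternatives are given at the end: other denominators, a mean over cells, thinning, depth, quality and marker limits, other filters and other folds.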

Additional observations from a re-analysis of the deposited data

How the results depend on the processing

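The 16 counts of sterol and fatty acid members past 1.5-fold were recomputed under 18 planned settings and 2 added after the data were seen, and of the 264 values whose cells, scale or limits a setting changes, 243 stayed within 1.5 times the count of the report. Several of the 16 counts were 0, and each 0 that stayed 0 is among the 243, so that number overstates how stable the other counts were. The 59 ratios of called members were recomputed on other cells or another scale under 14 settings (744 values), of which 333 lay outside the counting interval of the reported ratio and none changed sign. Sterol genes higher in keratin-high than in ATII cells numbered 4 and became 1 relative to the median ratio of all features, 1 with a denominator free of the 20 top features and mitochondrial features, 1 at 2-fold and 7 at a smaller limit (0.32 on the log2 scale in place of 0.58). Sterol genes lower there went from 4 to 2 with a minimum of 20 CPM. Sterol genes lower in ATI cells went from 11 to 6 with that minimum and to 7 at 2-fold. In Lyz2-high against Lyz2-low cells, the smaller limit gave 2 sterol and 2 fatty acid genes lower where the report has 0. Shares of all features are given for the setting of the report only, so the counts here under other settings have no such share beside them. Sterol genes lower in keratin-high than in ATI cells numbered 0 and became 1 at the smaller limit, 1 without cells carrying markers of other lists and 1 in keratin-high cells with Hopx under 2. Fatty acid genes higher there numbered 1, and became 2 with Hopx at 30 or more, 2 at the smaller limit, 2 among cells with Sftpc under 100 and 0 at 2-fold. Those lower there numbered 3, and became 1 with a mean over cells, 1 with Hopx at 30 or more, 1 at 2-fold, 1 among cells with Sftpc under 100 and 5 at the smaller limit. The log2 ratio of the sterol sum between keratin-high and ATII cells reversed from -0.42 to 0.22 without Pmvk, and the median of the sterol genes there ran from -0.12 to 0.39 over the settings. The sums show the part of Pmvk; for the other changes the cause was not tested.

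No paired analysis was run, because the matrix pools the mice and no mouse number was used for its cells. Leaving out each mouse in turn was not run. Elovl6 and Fads2 were under the filter of 5 CPM in every comparison of the report, so no ratio of theirs was called.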
